A study of Mus musculus with 6 samples.

Results

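The genes described here encode the vacuolar proton pump and the ion exchangers that work with it when an osteoclast acidifies bone. They were taken by symbol: every row whose symbol begins with Atp6v0, Atp6v1, Atp6ap1 or Atp6ap2, pseudogenes left out, together with Tcirg1, Clcn7, Ostm1, Slc4a2, Slc9b2, Car2, Plekhm1, Clcn3 and Clcn5. This gave 35 of the 55291 genes in the tables. Of these, 10 encode the membrane part V0, 13 the cytosolic part V1 and 3 accessory proteins, and 8 encode ion exchangers or proteins of acid secretion. Atp6v1fnb, a neighbour of Atp6v1f, matched by symbol alone. RNA was sequenced from RAW264.7, a macrophage-like mouse cell line raised from ascites, which forms osteoclasts when given the cytokine RANKL. Every culture had been kept with RANKL at 50 ng/mL until day 4. Cells with a short hairpin against Usp8 (shUSP8, genotype label USP8 Knock Down, n = 3) were compared with cells that carried a control hairpin (shCtrl, genotype label WT, n = 3). Usp8 encodes a deubiquitinating enzyme of endosomes, and the series title places the study in its role in osteoclast mitochondria and skeletal development. No label ties a replicate to a culture of its own. The p-values therefore set the difference between groups against the spread among libraries within a group, which may be technical. The sources used here name neither the hairpin sequence nor a second hairpin.

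The vacuolar ATPase is a rotary pump. The V1 part, on the cytosolic side, splits ATP and turns a central stalk, and the stalk spins a ring of c subunits in the membrane-bound V0 part, which carries protons across beside subunit a. In lysosomes the pump acidifies the lumen, and in osteoclasts it is placed in the ruffled border, the membrane that faces bone, where the acid dissolves mineral. Carbonic anhydrase supplies the protons, a chloride-proton exchanger of the same membrane balances the charge, and an exchanger on the opposite side of the cell exports the bicarbonate left behind. Loss of Tcirg1, Clcn7, Ostm1, Car2, Plekhm1 or Slc4a2 is known to cause osteopetrosis, in which bone is not resorbed, in patients, mice or cattle.

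Promoters of many lysosomal genes hold the CLEAR element, an E-box read by the MiT/TFE transcription factors Tfeb, Tfe3, Mitf and Tfec. RefSeq promoter windows (GRCm38.p6, 250 bases before to 50 after the start site) were matched by symbol for 27 of the 35 genes, in 36 windows. The letters TCACGTGA, which read the same on both strands, stood in the windows of 4 of these 27 genes (Atp6v1a, Atp6v0d1, Atp6v0e and Clcn7), against 1.12% of 27025 genes with a window. The shorter CACGTG inside it stood in 5 of 27, with Atp6v0b added, against 8.09% of all. These are matches of letters and show no binding. The upstream 250 bases are printed for 3 genes that hold CACGTG there (Atp6v1a, Atp6v0b and Clcn7), for Atp6v1d, the pump subunit with the lowest fold change below, and for Atp6v0a1, the one gene of the set that was higher in shUSP8. Capitals mark CACGTG. In Atp6v1a the longer match starts 132 bases before the start site, and the letters around it can be read in the line. The windows are chr16:44139260-44139509, minus strand, for Atp6v1a, chr4:117887330-117887579, minus strand, for Atp6v0b, chr17:25133141-25133390, plus strand, for Clcn7, chr12:78861639-78861888, minus strand, for Atp6v1d, and chr11:101010148-101010397, plus strand, for Atp6v0a1. They precede the start site that RefSeq gives, which for Atp6v0a1 lies 946 bases and for Atp6v1a 446 bases inside the gene span of GENCODE M21, and sequence before any start farther upstream is not shown.
Atp6v1a: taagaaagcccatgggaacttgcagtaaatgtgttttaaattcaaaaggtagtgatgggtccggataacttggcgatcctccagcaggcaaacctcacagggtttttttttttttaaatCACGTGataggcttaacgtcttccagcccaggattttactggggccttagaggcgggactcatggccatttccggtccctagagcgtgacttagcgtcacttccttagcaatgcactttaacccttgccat
Atp6v0b: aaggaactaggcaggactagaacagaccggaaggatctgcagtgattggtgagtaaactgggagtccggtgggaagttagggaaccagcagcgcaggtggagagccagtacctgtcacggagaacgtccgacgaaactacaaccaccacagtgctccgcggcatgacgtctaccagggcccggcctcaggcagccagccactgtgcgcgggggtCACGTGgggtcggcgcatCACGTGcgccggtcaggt
Clcn7: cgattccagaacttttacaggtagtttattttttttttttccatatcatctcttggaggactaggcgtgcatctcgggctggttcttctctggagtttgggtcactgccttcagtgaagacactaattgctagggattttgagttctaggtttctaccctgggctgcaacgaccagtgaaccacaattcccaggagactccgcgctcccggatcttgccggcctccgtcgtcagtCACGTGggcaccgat
Atp6v1d: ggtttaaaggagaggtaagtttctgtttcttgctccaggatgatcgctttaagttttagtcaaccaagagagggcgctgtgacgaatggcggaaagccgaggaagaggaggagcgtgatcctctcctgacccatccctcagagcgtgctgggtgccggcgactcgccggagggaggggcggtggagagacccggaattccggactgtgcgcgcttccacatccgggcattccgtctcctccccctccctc
Atp6v0a1: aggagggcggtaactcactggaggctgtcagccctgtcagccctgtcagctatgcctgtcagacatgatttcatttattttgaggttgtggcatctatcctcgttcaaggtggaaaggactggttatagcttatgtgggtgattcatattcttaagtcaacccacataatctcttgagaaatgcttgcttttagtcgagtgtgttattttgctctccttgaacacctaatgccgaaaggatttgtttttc
The Atp6v0b window holds the 6 letters at 36 and at 18 bases before the start site. Neither the Atp6v1d window nor that of Atp6v0a1 holds them. GC content was 62% for Atp6v0b and 59.6% for Atp6v1d, against 43.6% for Atp6v0a1, 46.4% for Atp6v1a and 50.4% for Clcn7.

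Depth was even, with 19973522 to 20142107 expected counts in the shUSP8 libraries and 20121644 to 20213939 in the shCtrl libraries. Counts below are given as CPM, counts scaled to a common library size with TMM factors, which correct for library composition, and levels as TPM, which also divides by transcript length. Usp8 was at 32.0, 34.8 and 35.1 CPM in shUSP8 and at 141, 129 and 137 CPM in shCtrl, so all 3 shUSP8 libraries had the lower level. All 10 osteoclast markers passed the count filter, and their summed TPM was 9111 to 9412 in shUSP8 and 9546 to 10368 in shCtrl, with 5 lower and none higher in shUSP8. Over all genes tested, 14.9% were lower and 17.8% higher, the shares to set beside the calls of each marker list here. On log2(TPM + 1), a scale used further down, Ctsk and Itgb3 were not called lower and Ocstamp was called higher. Ctsk and Ocstamp were named after their values were seen. Of the 10 macrophage markers 9 passed, 6 were higher and 2 lower, and their summed TPM was 6167 to 6835 in shUSP8 against 4036 to 4344 in shCtrl, with none of the 10 listed at 0. Lyz2, 1 of the 6, held most of that difference, at a mean of 3277 TPM in shUSP8 and 939 TPM in shCtrl. The 2 lower were Cd68 (1923 TPM in shUSP8, 2234 in shCtrl) and Csf1r (716 and 771 TPM). Cd68 and Csf1r were named after their values were seen. For neutrophil markers 3 of 10 passed, all higher (summed TPM 15.6 to 17.4 in shUSP8, 6.08 to 7.92 in shCtrl), with Ly6g, Elane, Ltf, Camp and Ngp listed at 0. For lymphocyte markers 1 of 10 passed and was higher (summed TPM 3.17 to 4.17 in shUSP8, 1.58 to 2.41 in shCtrl), with Cd3e, Cd3g and Cd8a among those listed at 0. For dendritic cell markers 5 of 10 passed, 1 higher and 2 lower (71.4 to 81.3 in shUSP8, 63.7 to 64.1 in shCtrl), with Cd209a and Siglech at 0. For stromal markers 5 of 10 passed, 1 higher (38.7 to 41.0 in shUSP8, 8.88 to 9.68 in shCtrl), with Alpl and Bglap at 0. The 1 called higher, Pdpn, held most of that sum, at a mean of 36.3 TPM in shUSP8 and 6.15 TPM in shCtrl. For erythroid markers Tfrc alone passed and was not called (243.7 to 255.3 in shUSP8, 211.9 to 218.4 in shCtrl), with Slc4a1 and Gata1 at 0. Tfrc itself overlapped between groups, at 189, 243 and 255 TPM in shUSP8 and 211 to 218 TPM in shCtrl. Globin reads set shUSP8_1 apart: Hbb-bs had 239 expected counts there, Hba-a1 92.0 and Hbb-bt 73.5, while each of these genes had at most 1.32 in any other library. The part of these markers in the results below was not tested, and in bulk RNA fewer cells of a type and less RNA per cell cannot be told apart. The mean fragment was 367 nt long in shUSP8_2 and 301 ± 6.27 nt (SD) over the other 5 libraries. Of the 28 genes of the set that were tested, 9 had their lowest shUSP8 value in shUSP8_2, close to an even share among the 3 shUSP8 libraries. The 9 were Atp6v0b, Atp6v0c, Atp6v0e, Atp6v0e2, Atp6v1b2, Atp6v1f, Atp6v1g1, Atp6v1g2 and Slc9b2. The part of fragment length in their values was not tested. Effective-length offsets, used further down, take this length into account.

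Most of the acid secretion genes tested were lower in shUSP8 in CPM, in both parts of the pump and among the exchangers around it. Fewer were called on log2(TPM + 1), as given further down. Together the 35 genes took 1.39% to 1.42% of all counts in shUSP8 and 1.72% to 1.74% in shCtrl. The count filter kept 28 of the 35, each with at least 10 counts in all 6 libraries, so none was kept through 1 group alone. Of these 28, 20 fell and 1 rose (edgeR quasi-likelihood test, adjusted p under 0.05 over 12440 genes), where 14.9% of all genes tested fell and 17.8% rose. The median log2 fold change was -0.30, against -0.0049 over all genes tested. In CPM, 23 of the 28 had every shUSP8 library below every shCtrl library and 1 had every one above, against 23.1% and 24.6% of all genes tested. By class, 5 of 9 V0 genes tested fell and 1 rose (median -0.27). In V1, 7 of 9 fell (median -0.45), as did both accessory genes (median -0.51) and 6 of 8 exchangers and acid secretion genes (median -0.20). The plot of CPM in each library shows the separation.

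**Figure D1:**
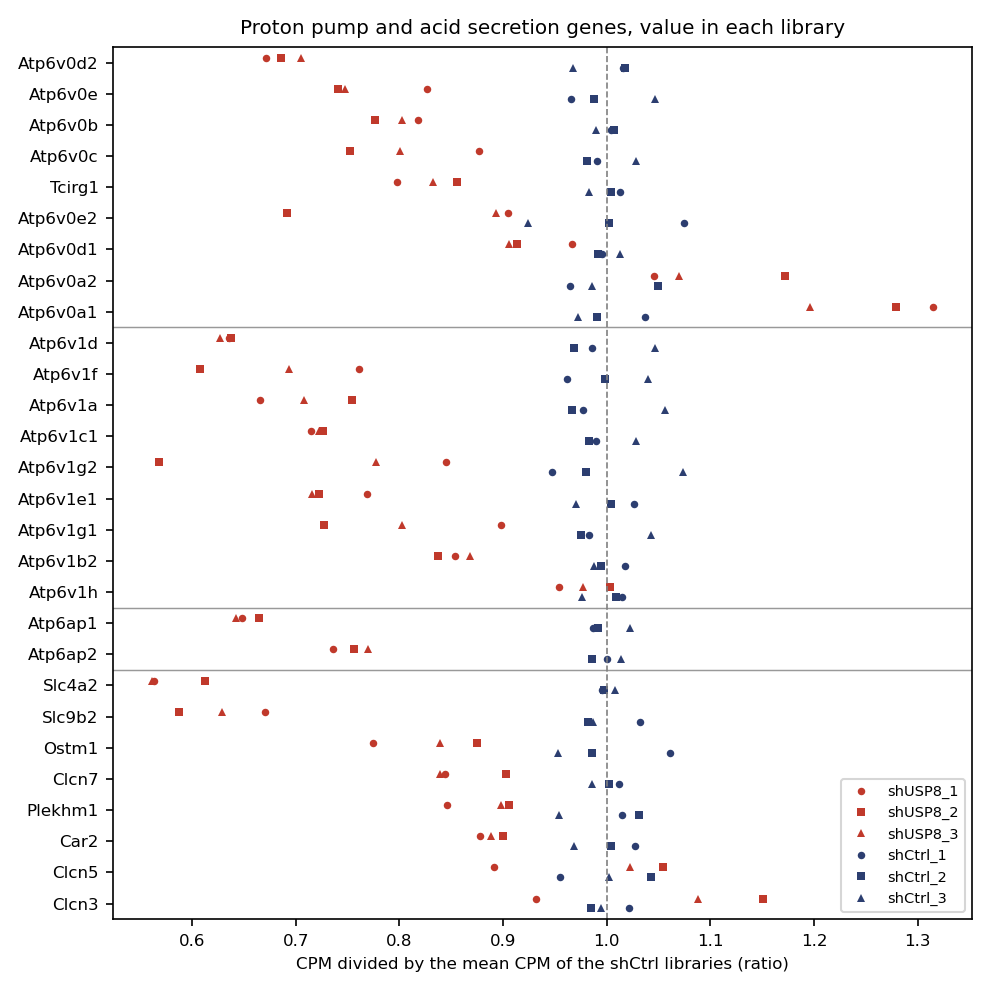
CPM of each of the 28 genes tested, divided by the mean of its 3 shCtrl libraries (x axis, ratio), with 1 point for each of the 3 shUSP8 libraries (red) and 3 shCtrl libraries (blue) and lines between V0, V1, accessory genes and exchangers. The red points of 23 genes lie wholly left of the blue ones, and those of Atp6v0a1 wholly right.

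On a per-length scale, TPM, the proton-carrying ring had the highest level of the set. Atp6v0c, the c subunit of that ring, was at 2627, 2287 and 2516 TPM in shUSP8 and at 2843, 2738 and 2722 TPM in shCtrl. All 3 shUSP8 values lay below the shCtrl values. Next in shCtrl came Tcirg1 (1017 to 1147 TPM), Atp6v1f (1050 to 1058), Atp6v1a (1043 to 1076), Atp6v0b (964 to 1080) and Atp6v1b2 (914 to 1000). These ranges overlap, except that of Atp6v1b2 with those of Tcirg1, Atp6v1f and Atp6v1a, so the order within them is set by less than their spread. In shUSP8 the catalytic subunit gene Atp6v1a ranked 7 by mean TPM (710 to 866), against 4 in shCtrl. At the low end stood Clcn5, with 4.45 to 8.47 TPM in shUSP8 and 5.96 to 6.65 in shCtrl, and Atp6v1g2, with 1.03 to 1.60 TPM in shUSP8 and 1.38 to 2.43 in shCtrl.

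**Figure D2:**
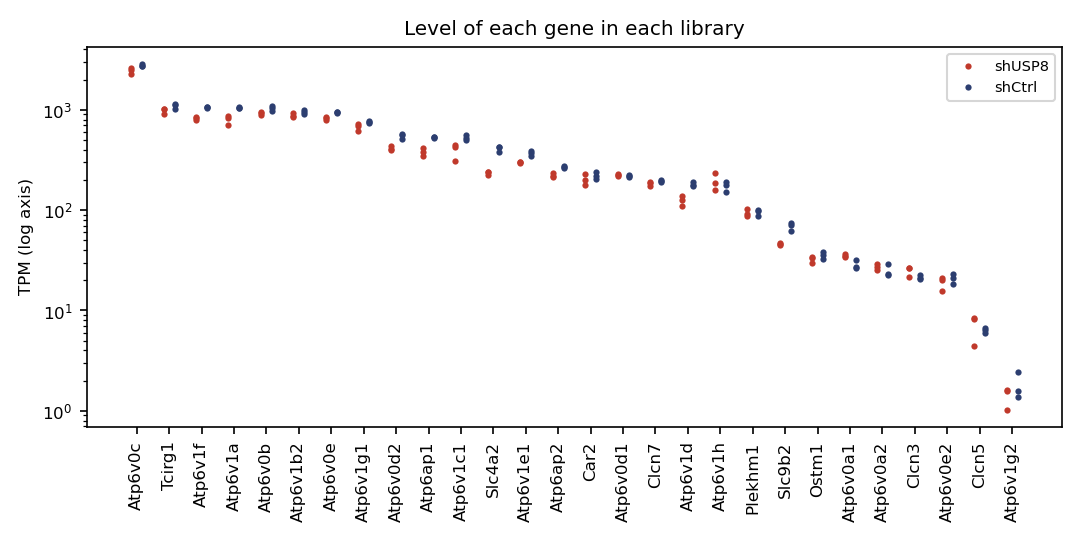
TPM of the 28 genes tested on a log axis, 1 point for each library, shUSP8 in red left of shCtrl in blue, ordered by the shCtrl mean. Atp6v0c stands highest at 2287 to 2843 TPM, and Atp6v1g2 lowest at 1.03 to 2.43 TPM.

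Of the 35 symbols, 7 had almost no reads. Atp6v0a4, the kidney form of subunit a, Atp6v1e2, Atp6v1g3 and Atp6ap1l were listed at 0 in all 6 libraries. Atp6v1b1, the B form of kidney and inner ear, had 1 count in shCtrl_1, Atp6v1fnb had 1 in shCtrl_2, and Atp6v1c2 had 1 in shUSP8_3 and 2 in shCtrl_2. An exon of Atp6v1c2 overlaps Pdia6 on the other strand, a gene at 278 CPM in shUSP8 and 223 in shCtrl. No comparison could be made at these counts.

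Among V0 genes, both ring subunits and a subunit e gene fell, by 19% to 22.8%. Atp6v0c was at 1805, 1549 and 1648 CPM in shUSP8 and at 2039, 2019 and 2115 CPM in shCtrl, 19% lower (log2 fold change -0.30, SE 0.06, edgeR adjusted p = 0.00312). A pseudogene of like sequence, Atp6v0c-ps2, took 4658 to 6167 expected counts in shUSP8 and 7054 to 7609 in shCtrl, so the split of reads between them is uncertain. With both summed, the fold change was -0.33 (adjusted p = 0.00269). Atp6v0b, which encodes the related c'' subunit, was at 473, 449 and 464 CPM in shUSP8 and at 580, 582 and 572 CPM in shCtrl (log2 fold change -0.32, SE 0.05). Atp6v0e, a small membrane subunit, was at 364, 326 and 329 CPM in shUSP8 and at 425, 435 and 461 CPM in shCtrl (-0.37, SE 0.06). The 3 genes showed no overlap of the groups in CPM. On log2(TPM + 1), tested with limma, Atp6v0c (-0.16, adjusted p = 0.095) and Atp6v0b (-0.15, 0.0992) were not called. Atp6v0e was called lower on that scale (-0.20, limma adjusted p = 0.0203). Atp6v0e2, a second form of subunit e, was at 18.9 to 24.7 CPM in shUSP8 and 25.2 to 29.3 CPM in shCtrl, and did not pass the test (-0.27, adjusted p = 0.0719). It passed without shUSP8_1 (adjusted p = 0.0281), with the replicate number as a block (0.0474) and with no count filter (0.00316).

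Subunit a decides which membrane the pump is sent to, and its forms did not move together. Tcirg1, the a3 form of osteoclasts and late lysosomes, lies on chromosome 19 at 3896050 to 3907133, minus strand (GRCm38). It was at 1518, 1628 and 1585 CPM in shUSP8 and at 1929, 1912 and 1872 CPM in shCtrl, 17.2% lower (log2 fold change -0.27, SE 0.05, edgeR adjusted p = 0.00205). In TPM the groups overlapped slightly, at 901, 1017.40 and 1013 in shUSP8 and 1147, 1107 and 1017.03 in shCtrl. On log2(TPM + 1) Tcirg1 was not called (-0.16, limma adjusted p = 0.142). Atp6v0a1, the form best known from neurons, lies on chromosome 11 at 101009452 to 101063719, plus strand. It was the one gene that rose, with 87.5, 85.2 and 79.6 CPM in shUSP8 and 69.0, 65.9 and 64.7 CPM in shCtrl (0.34, SE 0.05, adjusted p = 5.37e-04). With effective-length offsets it was at 0.19 and did not pass (adjusted p = 0.0969). Every shUSP8 library lay above every shCtrl library, in TPM too (34.2 to 36.9 in shUSP8, 26.4 to 31.5 in shCtrl). Atp6v0a2, the form of the Golgi and early endosomes, was at 94.0, 105.3 and 96.1 CPM in shUSP8 and at 86.7, 94.3 and 88.6 CPM in shCtrl. Its groups overlapped and it did not pass (0.13, adjusted p = 0.105), except without shUSP8_1 (0.16, adjusted p = 0.0352) and with library totals (0.21, adjusted p = 0.0228). Tcirg1 made up nearly all transcripts of subunit a on the TPM scale in both groups: 93.7%, 94.1% and 94.2% in shUSP8 and 95.5%, 95.2% and 95.3% in shCtrl. The difference was -1.36 percentage points (exact permutation test, two-sided, p = 0.1, below which groups of 3 cannot go).

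Subunit d joins the ring to the central stalk, and again the osteoclast form had the lower fold change. Atp6v0d2, needed for fusion of osteoclast precursors in mice, lies on chromosome 4 at 19876841 to 19922605, minus strand. It was at 739.9, 756 and 777 CPM in shUSP8 and at 1119, 1121 and 1066 CPM in shCtrl, 31.2% lower (log2 fold change -0.54, SE 0.05, edgeR adjusted p = 7.16e-06). Atp6v0d1, the ubiquitous form, was at 248, 234 and 232 CPM in shUSP8 and at 255, 254 and 259.6 CPM in shCtrl. Its groups did not overlap, but it did not pass the test (-0.11, SE 0.05, adjusted p = 0.112). It passed without shUSP8_1 (-0.14, adjusted p = 0.0403), and its value was 0.04 on log2(TPM + 1). In TPM, Atp6v0d2 made up 63.5%, 64.8% and 66.1% of the d forms in shUSP8 and 72.0%, 72.1% and 70.6% in shCtrl. The difference of -6.75 percentage points had no overlap between groups (same exact permutation test, p = 0.1).

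**Figure D3:**
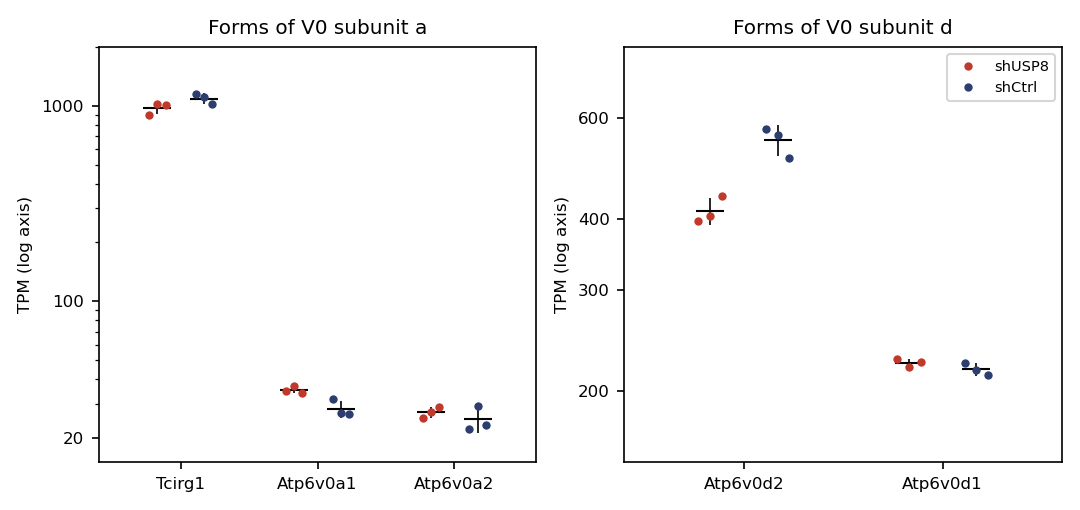
TPM on log axes of the forms of V0 subunit a (left) and subunit d (right), 1 point for each library, with mean and SD of 3 libraries in black, shUSP8 (red) left of shCtrl (blue). Atp6v0d2 lies at 396 to 439 TPM in shUSP8 and 512 to 576 in shCtrl, while Atp6v0d1 lies at 220.5 to 227.4 and 213.0 to 224.3 TPM.

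In V1 the catalytic head and both stalks were lower in CPM. Atp6v1a, the subunit that binds and splits ATP, lies on chromosome 16 at 44085402 to 44139705, minus strand. It was at 1972, 2234 and 2096 CPM in shUSP8 and at 2894, 2862 and 3129 CPM in shCtrl, 29.1% lower (log2 fold change -0.50, SE 0.06, edgeR adjusted p = 9.40e-05). Its partner Atp6v1b2, the B form of osteoclasts and most other cells, was at 1796, 1762 and 1826 CPM in shUSP8 and at 2141, 2092 and 2078 CPM in shCtrl, 14.7% lower (-0.23, SE 0.05, adjusted p = 0.00489). Both genes had separate groups in CPM. On log2(TPM + 1) Atp6v1a was called lower, while Atp6v1b2 was not (-0.11, limma adjusted p = 0.238). In TPM the groups of Atp6v1b2 overlapped.

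A shaft subunit of the central stalk, Atp6v1d, had the deepest fall of any pump subunit. The gene lies on chromosome 12 at 78840725 to 78861638, minus strand. It was at 251, 252 and 248 CPM in shUSP8 and at 390, 383 and 414 CPM in shCtrl, 36.7% lower (log2 fold change -0.66, SE 0.05, edgeR adjusted p = 8.84e-07). The 3 shUSP8 values lay within 5 CPM of each other. Atp6v1f, the other shaft subunit, was at 288, 230.1 and 262 CPM in shUSP8 and at 364, 378 and 394 CPM in shCtrl (-0.54, SE 0.07). Its lowest value was that of shUSP8_2, the library with the longest fragments, and with fragment length taken into account the fold change was -0.49 (adjusted p = 4.00e-04).

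Of the outer stalk and its regulators, Atp6v1c1, the C subunit through which V1 docks on V0, was at 438, 445 and 442 CPM in shUSP8 and at 606, 601 and 629 CPM in shCtrl (log2 fold change -0.47, SE 0.05, edgeR adjusted p = 1.35e-05). Atp6v1e1 was at 256, 241 and 239 CPM in shUSP8 and at 342, 335 and 323 CPM in shCtrl (-0.44, SE 0.05). Atp6v1g1 was at 504, 408 and 450.4 CPM in shUSP8 and at 552, 547 and 585 CPM in shCtrl (-0.31, SE 0.07, adjusted p = 0.0067). These stalk genes had no overlap between groups. On log2(TPM + 1), Atp6v1c1 (-0.43, limma adjusted p = 0.0538) and Atp6v1g1 (-0.16, 0.107) were not called. Atp6v1g2, the G form of neurons, had 17 to 25 expected counts in shUSP8 and 27 to 30 in shCtrl and did not pass (-0.45, adjusted p = 0.181). An exon of it overlaps Nfkbil1 on the other strand. Atp6v1h, which links V1 to V0 and silences V1 when it is detached, stood apart from the other expressed V1 subunits: it was at 214.5, 226 and 219.8 CPM in shUSP8 and at 228, 227 and 219.6 CPM in shCtrl. The groups overlapped (-0.03, SE 0.05, adjusted p = 0.650), and the sign was positive with library totals (0.04), effective-length offsets (0.02) and log2(TPM + 1) (0.14).

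Both expressed accessory subunits fell. Atp6ap1, or Ac45, helps assemble the pump and bring it to the ruffled border, and lies on chromosome X at 74297097 to 74304721, plus strand. It was at 443, 454 and 439 CPM in shUSP8 and at 674, 678 and 699 CPM in shCtrl, 34.9% lower (log2 fold change -0.62, SE 0.05, edgeR adjusted p = 1.20e-06). Atp6ap2, known as the prorenin receptor, was at 356, 366 and 372 CPM in shUSP8 and at 484, 477 and 491 CPM in shCtrl (-0.41, SE 0.05, adjusted p = 4.21e-05). Neither gene had overlapping groups, in CPM or in TPM.

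The bicarbonate and sodium exchangers had the lowest fold changes of the whole set. Slc4a2, the anion exchanger AE2, exports bicarbonate from the resorbing osteoclast in exchange for chloride and lies on chromosome 5 at 24423837 to 24440950, plus strand. It was at 530.3, 576 and 528 CPM in shUSP8 and at 936, 938 and 949 CPM in shCtrl, 42.1% lower (log2 fold change -0.79, SE 0.05, edgeR adjusted p = 3.00e-07). Fastk overlaps an exon of it on the other strand, at 105 CPM in shUSP8 and 117 in shCtrl, and no source used here says that counting used strand. Slc9b2, the sodium-proton exchanger NHA2 that RANKL induces, lies on chromosome 3 at 135307700 to 135345387, plus strand. It was at 59.0, 51.7 and 55.4 CPM in shUSP8 and at 90.9, 86.5 and 86.9 CPM in shCtrl, 37.1% lower (-0.67, SE 0.06, adjusted p = 3.12e-06). For both, the highest shUSP8 library lay far below the lowest shCtrl library.

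Proton supply and the chloride pathway moved less. Car2, the cytosolic carbonic anhydrase II, was at 167, 171 and 169 CPM in shUSP8 and at 195, 191 and 184 CPM in shCtrl, 11.2% lower (log2 fold change -0.17, SE 0.05, edgeR adjusted p = 0.0158). Car2 no longer passed when shCtrl_1 (adjusted p = 0.0766), shCtrl_2 (0.0703) or shUSP8_3 (0.0583) was left out, with library totals (0.171) and on log2(TPM + 1) (0.330). Clcn7, the chloride-proton exchanger of lysosomes and ruffled border, was at 523, 559.7 and 520.0 CPM in shUSP8 and at 627, 621 and 611 CPM in shCtrl (-0.21, SE 0.05, adjusted p = 0.00699), and did not pass with library totals (-0.14, adjusted p = 0.062). Ostm1, its obligate partner subunit, was at 66.5, 75.2 and 72.1 CPM in shUSP8 and at 91.2, 84.7 and 81.8 CPM in shCtrl (-0.27, SE 0.06, adjusted p = 0.00525). The groups of both partners were separate in CPM, and those of Ostm1 overlapped in TPM. On log2(TPM + 1), neither Clcn7 (-0.09, limma adjusted p = 0.282) nor Ostm1 (-0.13, 0.333) was called. Clcn3 and Clcn5, chloride-proton exchangers of endosomes, did not pass, with overlapping groups. Clcn3 was at 83.3, 102.9 and 97.4 CPM in shUSP8 and at 91.3, 88.1 and 89.0 CPM in shCtrl (0.08, adjusted p = 0.423), and passed without shUSP8_1 (0.16, adjusted p = 0.0206). Clcn5 was at 23.7, 28.0 and 27.2 CPM in shUSP8 and at 25.4, 27.7 and 26.7 CPM in shCtrl (-0.02, adjusted p = 0.8999), with a positive value on log2(TPM + 1) (0.09).

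Plekhm1, an adaptor that binds Rab7 and brings lysosomes to the ruffled border, was at 357, 382 and 379 CPM in shUSP8 and at 428, 435 and 403 CPM in shCtrl (log2 fold change -0.18, SE 0.05, edgeR adjusted p = 0.0218). Its groups were separate in CPM and overlapped in TPM. It did not pass when shCtrl_1 (adjusted p = 0.084), shCtrl_2 (0.113) or shUSP8_3 (0.0579) was left out, with the replicate block (0.0502), library totals (0.181), effective-length offsets (0.101) and log2(TPM + 1) (0.922).

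The calls depended on how length and composition were scaled. Effective-length offsets enter each gene's expected count over its TPM into the fit, which takes out differences in fragment length and transcript mix between libraries. With them 19 of the 28 fell and none rose, against 9.9% and 12.2% of all genes. On log2(TPM + 1), tested with limma, 10 fell and Atp6v0a1 alone rose, against 4.02% and 19.1% of all genes. Over all genes, 2379 rose and 500 fell on that scale and 3111 rose and 1172 fell with library totals, against 2218 that rose and 1859 that fell with TMM factors. The median of all genes was 0.11 on log2(TPM + 1) and that of the 28 was -0.16. On log2(TPM + 0.1) 10 also fell, against 3.95% of all. The 10 that fell on log2(TPM + 1) were Atp6v0d2 (-0.41), Atp6v0e (-0.20), Atp6v1d (-0.53), Atp6v1f (-0.36), Atp6v1a (-0.40), Atp6v1e1 (-0.30), Atp6ap1 (-0.47), Atp6ap2 (-0.28), Slc4a2 (-0.81) and Slc9b2 (-0.57). With library totals in place of TMM factors, 17 fell and Atp6v0a1 and Atp6v0a2 rose, against 9.42% and 25% of all genes. With a library left out 18 to 22 fell: 18 without shCtrl_2, where 9.81% of all genes fell, 20 without shCtrl_3, where 10.3% did, and 22 without shUSP8_1, where 16.5% did. In TPM, 15 of the 28 had all shUSP8 libraries below all shCtrl libraries and 1 above, against 9.12% and 33.8% of all genes tested.

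**Figure D4:**
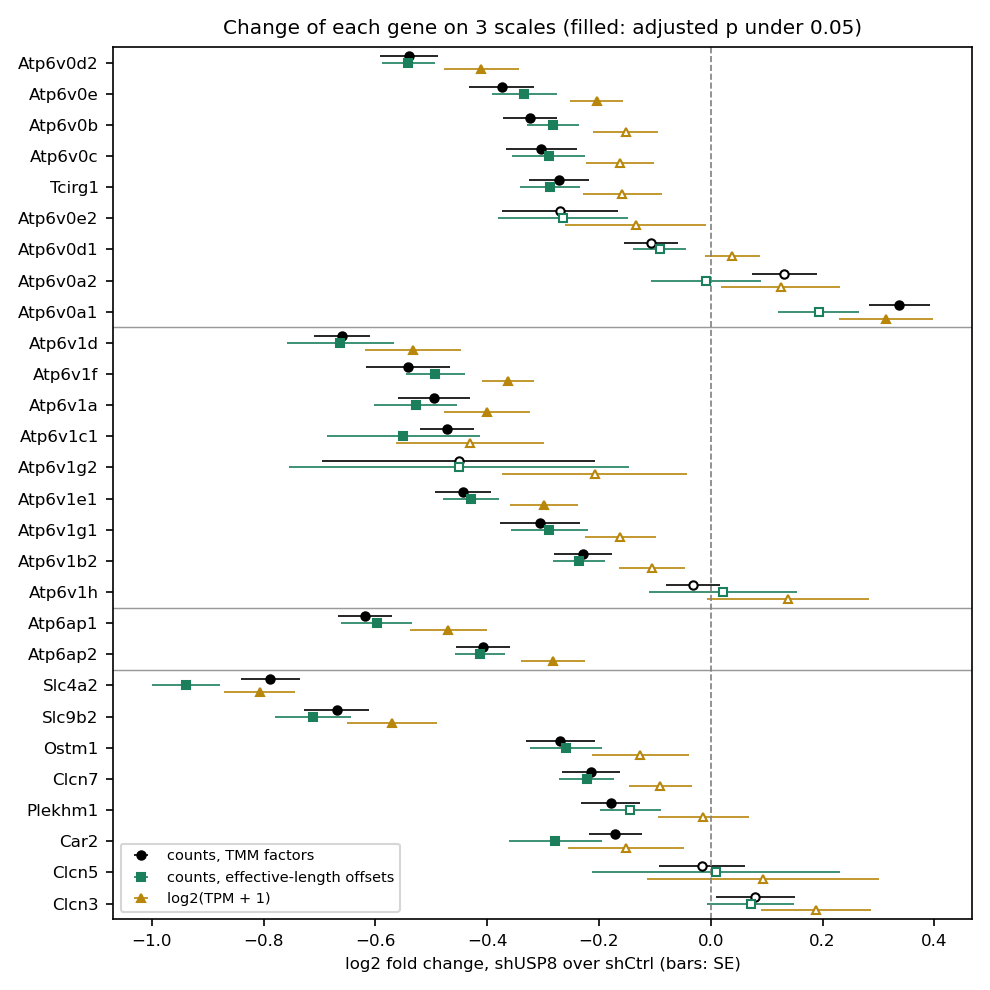
Log2 fold change of shUSP8 over shCtrl (x axis) with SE for the 28 genes tested, from counts with TMM factors (black), counts with effective-length offsets (green) and log2(TPM + 1) (gold), filled where the adjusted p was under 0.05. The lowest black value is -0.79 for Slc4a2, the highest is 0.34 for Atp6v0a1, and gold values lie to the right of black ones for most genes.

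Genes around the pump, taken from lists chosen with earlier results of these data known, did not share 1 direction. Of 12 assembly factors and regulators of the pump, 10 were tested, 5 fell and 2 rose, against 14.9% and 17.8% of all genes tested (median log2 fold change -0.22). The share that rose was near that of all genes. Oxr1, one of the TLDc proteins that act on the assembled pump, was at 49.6, 60.9 and 55.6 CPM in shUSP8 and at 83.2, 83.6 and 85.8 CPM in shCtrl (-0.60, SE 0.07, edgeR adjusted p = 3.19e-05), and Tbc1d24, another TLDc protein, was at -0.52 (adjusted p = 3.63e-04). Vma21, a chaperone of V0 assembly in the endoplasmic reticulum, fell by 0.42 (adjusted p = 4.21e-04), but was at -0.16 with effective-length offsets (adjusted p = 0.248). Ccdc115, another assembly factor, fell by 0.24, a call that did not hold without shCtrl_2 (adjusted p = 0.0506) or shUSP8_3 (0.0551), nor with library totals (0.057). The fifth, Wdr7, was at -0.20 with an adjusted p of 0.0497, and lost its call with any library but shUSP8_2 left out (adjusted p = 0.0921 to 0.165), with library totals (-0.13, adjusted p = 0.2295) and with the replicate block (0.0675). The risers were Dmxl2 (0.38), which with Wdr7 forms the rabconnectin complex, and Rogdi (0.31). The call of Dmxl2 was lost without shCtrl_3 (adjusted p = 0.0557) or shUSP8_3 (0.0554). Rogdi lost its call on removal of shCtrl_1 (adjusted p = 0.054), shCtrl_2 (0.0926), shCtrl_3 (0.0579) or shUSP8_1 (0.0678), with DESeq2 (0.1295) and with effective-length offsets (log2 fold change 0.16, adjusted p = 0.295). Wdr7, Dmxl2 and Rogdi were named after their values were seen. On log2(TPM + 1), Oxr1, Tbc1d24, Vma21, Ccdc115 and Wdr7 were not called, nor were Flcn, Rragc, Snx10, Arl8b, Car9, Slc4a7 and Slc4a3 of the lists below.

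Of the 4 MiT/TFE transcription factors none was called lower and 1 was called higher. Mitf, needed for osteoclast formation in mice, was at 72.6, 77.0 and 82.6 CPM in shUSP8 and at 85.5, 82.9 and 87.4 CPM in shCtrl (log2 fold change -0.14, SE 0.06, edgeR adjusted p = 0.0821), and passed without shUSP8_3 (-0.19, adjusted p = 0.0478). Tfeb was at 22.2, 20.4 and 20.7 CPM in shUSP8 and at 20.2, 20.5 and 24.2 CPM in shCtrl (-0.03, adjusted p = 0.796). Tfe3 was at 83.3, 79.7 and 82.7 CPM in shUSP8 and at 74.9, 76.0 and 81.3 CPM in shCtrl (0.08, adjusted p = 0.262), and passed with library totals (0.16, adjusted p = 0.0327). Tfec, a myeloid member of the family, rose, with 13.7, 14.3 and 13.9 CPM in shUSP8 and 9.06, 9.20 and 9.09 CPM in shCtrl (0.61, SE 0.08, adjusted p = 1.16e-04). Of the 11 Ragulator and Rag genes, which tether mTORC1 to lysosomes beside the pump, 3 fell and 1 rose, against 14.9% and 17.8% of all genes tested (median -0.13). Lamtor1, the membrane anchor, fell by 0.38 (adjusted p = 5.27e-04) and Flcn by 0.20. With library totals Flcn did not pass (-0.12, adjusted p = 0.0919). Rragc had an adjusted p of 0.0477, lost with any library but shUSP8_1 left out (adjusted p = 0.108 to 0.141), and with DESeq2 (0.0847), no count filter (0.0544), the replicate block (0.0817), library totals (-0.07, adjusted p = 0.331) and effective-length offsets (0.108). Rragd rose by 1.23 at low levels, with 1.71 to 2.46 CPM in shUSP8 and 0.810 to 0.982 CPM in shCtrl.

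Among 14 genes of lysosome traffic to the ruffled border, 12 were tested, 2 fell and 3 rose (median 0.04), which is close to the 14.9% and 17.8% of all genes tested. Snx10, a sorting nexin whose loss causes osteopetrosis, was at 118.3, 121.6 and 115.6 CPM in shUSP8 and at 167, 163 and 168 CPM in shCtrl (-0.49, SE 0.05, edgeR adjusted p = 8.45e-06). Arl8b, a GTPase that moves lysosomes, fell by 0.21, but did not pass with library totals (-0.14, adjusted p = 0.0611). Lamp1, a membrane protein of lysosomes, rose, with 644, 616 and 608 CPM in shUSP8 and 471, 468 and 515 CPM in shCtrl (0.36, SE 0.06, adjusted p = 3.63e-04). Def8, a partner of Plekhm1, rose by 0.37. Lamp2, named after its value was seen, rose by 0.20, but fell short on removal of shCtrl_1 (adjusted p = 0.0927), shCtrl_2 (0.101) or shUSP8_3 (0.0919).

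Of 15 other carbonic anhydrases, 6 were tested, 2 rose and 1 fell, against 17.8% and 14.9% of all genes tested (median 0.33). Car12, a membrane form with its active site outside the cell, was at 9.96, 11.6 and 8.64 CPM in shUSP8 and at 3.75, 3.49 and 3.56 CPM in shCtrl (1.48, SE 0.13, edgeR adjusted p = 3.40e-06). Car13, a cytosolic form, was at 23.0, 22.7 and 21.1 CPM in shUSP8 and at 14.0, 14.0 and 14.8 CPM in shCtrl (0.64, SE 0.07). Both had separate groups. Car9 was at -0.43 with an adjusted p of 0.0451, and kept its call with a library left out only for shCtrl_3 and shUSP8_1 (0.103 to 0.187 for the other 4). It did not pass with DESeq2 (0.1601), effective-length offsets (0.197), library totals (0.0899) or the replicate block (0.0582).

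Of 22 other transporters of acid or base, 14 were tested, 5 rose and 1 fell, against 17.8% and 14.9% of all genes tested (median 0.16). Hvcn1, the voltage-gated proton channel that sustains the phagocyte NADPH oxidase, had the largest change of all genes listed here, with 14.1, 13.2 and 12.7 CPM in shUSP8 and 0.962, 0.859 and 1.29 CPM in shCtrl (log2 fold change 3.68, SE 0.15, edgeR adjusted p = 1.97e-09). Slc4a8, a sodium-driven bicarbonate exchanger, rose by 0.59 (adjusted p = 1.06e-04). Slc9a5, a sodium-proton exchanger, rose by 0.32, a call lost without shCtrl_3 (adjusted p = 0.0536) and with effective-length offsets (0.0518). Slc4a7 (0.38) and the lactate exporter Slc16a3 (0.19), named after their values were seen, had adjusted p-values of 0.0224 and 0.0496. The call of Slc4a7 was lost with any library but shUSP8_1 left out (0.0508 to 0.0888), and that of Slc16a3 with any but shUSP8_3 (0.0532 to 0.205). With effective-length offsets neither passed (adjusted p = 0.0897 for Slc4a7 and 0.161 for Slc16a3), and Slc16a3 did not pass with RLE factors (0.056) or the replicate block (0.0648). The gene that fell was Slc4a3, a relative of Slc4a2, at 6.00, 5.65 and 5.96 CPM in shUSP8 and 7.80, 7.93 and 7.13 CPM in shCtrl (-0.38, adjusted p = 0.0153). Its value was 0.0065 on log2(TPM + 1), and the call was lost without shCtrl_1 (adjusted p = 0.0554) or shCtrl_2 (0.0694) and with DESeq2 (0.0963) and effective-length offsets (-0.13, adjusted p = 0.631). Among 18 other chloride and lysosomal channels, 11 were tested and 1 fell, against 14.9% of all genes tested (median -0.15): Clic4, of the intracellular chloride channel family, at 909.7, 972 and 916 CPM in shUSP8 and at 1585, 1576 and 1556 CPM in shCtrl (-0.75, SE 0.05, adjusted p = 3.78e-07).

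**Figure D5:**
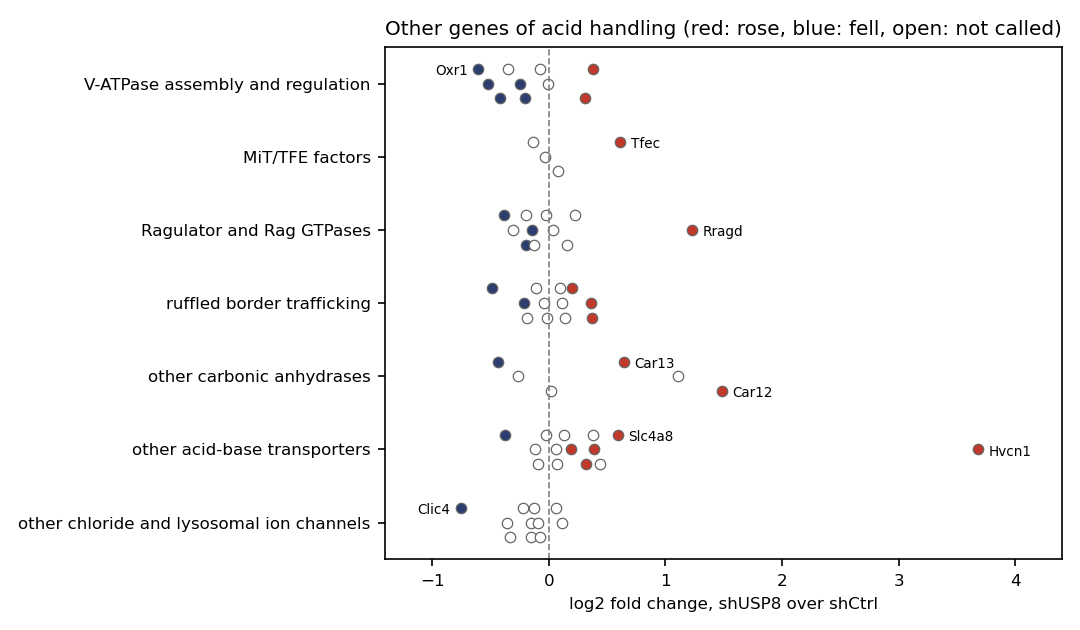
Log2 fold change of shUSP8 over shCtrl (x axis) for the tested genes of 7 further lists (rows), red where a gene rose, blue where it fell and open where it was not called. Hvcn1 stands at 3.68 and Car12 at 1.48, while Clic4 stands at -0.75 and Oxr1 at -0.60.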

How the data were processed

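Expected counts and TPM were read from a pair of tables covering all 6 libraries. Gene-level expected counts were deposited by the authors as RSEM estimates, and 7.16% of them are not whole. The TPM values were deposited by the authors as abundances divided by effective length and scaled to a fixed sum. Tools and builds listed per the submitters' processing notes are mm10, RSEM and DESeq2 1.28.1, with no role given. The aligner and annotation are not given in the sources used here. Columns headed KO were read as shUSP8 and columns headed WT as shCtrl, by genotype label and number. KO is not the label's own word, and the Usp8 counts check it for groups. Of 142604 transcript identifiers, 140751 are in GENCODE M21 (GRCm38), which gave coordinates.

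The main test was edgeR's robust quasi-likelihood F test (version 4.0.16, under R 4.3.3) on rounded counts scaled by TMM. Genes were kept by filterByExpr at a minimum total of 15 and a minimum count of 10. Benjamini-Hochberg adjusted p under 0.05 over all genes tested was a call. SE is the absolute log2 fold change over the square root of F. Shares of forms were compared by a two-sided exact permutation test. Fragment length came from a straight line of count over TPM against transcript length in genes with 1 transcript. The procedure was tested on simulated data. Alternatives used RLE factors, library totals, no filter, DESeq2 1.42.0, limma 3.58.1 on log2(TPM + 1) and log2(TPM + 0.1), effective-length offsets, leave-one-out fits and the replicate number as a block. Adding the pseudogene to Atp6v0c was chosen after its counts had been seen. Members and lists were chosen with earlier results of these data known. All 28 tested members are named, then up to 4 called genes of each other list by smallest p and the MiT/TFE factors. Some marker genes are not reported here. Tools for tables and plots were matplotlib 3.10.9, scipy 1.17.1, pandas 2.3.3 and numpy 2.4.6 under Python 3.11.15.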

Additional observations from a re-analysis of the deposited data

How the results depend on the processing

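The number of genes of the set called lower was 20 as reported, 17 to 21 with RLE factors, library totals, no filter, DESeq2 or effective-length offsets, and 10 on log2(TPM + 1) and on log2(TPM + 0.1). Of all genes tested, 14.9% were lower as reported. That share ran from 9.42% with library totals to 15.2% with RLE factors, and was 4.02% and 3.95% on the TPM scales. With a library left out 18 to 22 of the set were lower, against 9.81% to 16.5% of all genes. The number called higher was 0 with effective-length offsets, 2 with library totals, and 1 to 3 with a library left out. Of all genes, 12.2%, 25% and 13.3% to 18.7% were higher in these fits. The higher genes without shUSP8_1 were Atp6v0a1, Atp6v0a2 and Clcn3. Genes called over all tested numbered 2736 to 4555 under these alternatives, against 4077. The difference in the share of Atp6v0d2 stayed between -7.40 and -6.11 percentage points, and that of Tcirg1 between -1.44 and -1.23, with a library left out. Of 420 values of tested genes in 15 alternatives, 368 kept direction and side of the threshold, 32 lost the call, 7 gained it and 13 changed sign, all 13 in genes that were not called. Atp6v0a2 was at -0.0083 with effective-length offsets, and Atp6v0d1 at 0.0383 and 0.0385 on log2(TPM + 1) and log2(TPM + 0.1). Atp6v1h was at 0.0221 with effective-length offsets, 0.0421 with library totals and 0.138 and 0.139 on the TPM scales. Clcn5 was at 0.0095 with effective-length offsets, 0.0589 with library totals, 0.0938 and 0.0991 on the TPM scales, 0.0147 without shCtrl_2 and 0.0547 without shUSP8_1, and ran between -0.0642 and 0.0547 over all libraries left out. Beyond the set, Tfeb was at 0.042 with library totals, 0.0841 and 0.0899 on the TPM scales and 0.0543 without shCtrl_3, and Slc4a3 at 0.0065 and 0.0089 on the TPM scales. The cause of these changes was not tested.

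Libraries with the same number were not treated as paired: deviations from the group means correlated across genes at -0.012, 0.044 and -0.080 for numbers 1, 2 and 3. With the replicate block 20 genes of the set were lower and 1 higher, against 13.6% and 16.2% of all genes tested. In all, 3711 genes were called in that fit. Each library held 19973522 to 20213939 expected counts, so the 7 symbols with at most 3 counts in all were beyond comparison.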

Other observations

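Some values differed within a group in genes that were not called. Dmxl1, a large partner of the rabconnectin complex, was at 129 CPM in shUSP8_1, 240.4 in shUSP8_2 and 235 in shUSP8_3, against 247 to 272 CPM in shCtrl. Clcn5 was at 4.45 TPM in shUSP8_1 and at 8.47 and 8.24 TPM in the other shUSP8 libraries, while its expected counts there were 486, 581 and 557. Car6, a secreted carbonic anhydrase, was at 2.93, 3.72 and 4.59 CPM in shUSP8 and at 0.709, 1.31 and 3.20 CPM in shCtrl (log2 fold change 1.11, edgeR adjusted p = 0.162). These genes were named after their values were seen.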
